A study of Mus musculus with 15 samples.

Results

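Replicate 3 was compared with replicate 2 of the same treatment in mouse testis, for MTX, HMS-I1 and TSA. These 6 of the 15 libraries were chosen by their normalised counts over all genes, which place them at opposite ends of a main axis of variation that does not follow treatment. The differences between them are therefore described with counts and sizes and with no test, because each side of a pair is 1 library. The labels give whole testes of C57/BL6 mice in 5 groups of 3 libraries: Control, MTX, HMS-I1, AA and TSA. They spell out no abbreviation and give no dose, age or duration, and nothing in them says that replicates came from separate animals. Groups were taken from the titles, because the treatment field numbers the libraries titled HMS-I1 as HMS-I1 to HMS-I3. AA, whose replicates 2 and 3 were left out by the same choice, is given beside the other pairs. Because that choice used the values, unlikeness of AA to the other pairs can follow from it.

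A testis is mostly germ cells. Spermatogonia divide by mitosis, spermatocytes pair and recombine their chromosomes in the prophase of meiosis, and haploid spermatids remodel their nucleus and build a tail while transcription shuts down. Sertoli cells nurse the germ cells, Leydig cells make testosterone, and vessels, myoid cells and macrophages lie between the tubules. In a whole organ, fewer cells of a type and less RNA per cell cannot be told apart. The ends of the axis were therefore read by gene class, by cell type list and by the sequence of the transcripts themselves.

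The deposited values are normalised counts, and differences are given as replicate 3 minus replicate 2 of log2(normalised count + 1). Those with a mean of 10 or more in all 15 libraries together, 17896 genes, were compared. A gene counted as higher or lower where the difference was at least 1 log2 unit, which is 2-fold, in all 3 pairs. By this rule 477 genes were higher in replicate 3 (2.67%) and 1093 were lower (6.11%). At any size, 6579 genes (36.8%) were higher in all 3 pairs and 5991 (33.5%) were lower. In single pairs, 2098 genes (11.7%) were higher by at least 1 log2 unit in MTX, 1263 (7.06%) in HMS-I1 and 1746 (9.76%) in TSA, and 2601 (14.5%), 2043 (11.4%) and 1855 (10.4%) were lower. These shares describe the contrast that chose the libraries. The median over all genes was 0.01 in the MTX pair, 0.00 in the HMS-I1 pair and 0.08 in the TSA pair, so the 2 tails lie around a centre near 0. With every library scaled to the same total, which moves those medians by 0.43, 0.34 and 0.14, the split was 1098 higher and 622 lower. Across genes, the differences had a Pearson correlation of 0.73 between MTX and HMS-I1, 0.66 between MTX and TSA and 0.62 between HMS-I1 and TSA. Genes are not independent replicates, and the libraries were chosen for this likeness.

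The members just inside the threshold show what it separates. Slc25a33, a mitochondrial pyrimidine nucleotide carrier, was inside at 1.24, 1.00 and 1.16 in the MTX, HMS-I1 and TSA pairs, and Faap20 was inside at 1.00, 1.05 and 1.11. Mfsd3 was outside at 1.84, 1.28 and 0.999988, and Ppm1j at 1.35, 0.999551 and 1.62. On the lower side Pde7a, a cyclic AMP phosphodiesterase, was inside at -1.64, -1.00021 and -1.06 and Zfp617 at -1.00023, -1.11 and -1.12. Fam204a was outside at -1.05, -1.20 and -0.998442 and Phc3, a Polycomb protein, at -1.52, -1.07 and -0.997968.

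The 2 ends of the axis differed in base composition. The genes at each end are shown by a stretch of 120 bases of coding sequence whose GC content is the nearest to that of the whole coding sequence, with G and C in capitals. Sequences are from GENCODE's annotation of the mouse build GRCm38. They belong to 3 protein-coding genes near the top of each group named further on, each with under 50% of its sequence words in other genes.
Xkrx, lower, chromosome X, coding bases 1 to 120: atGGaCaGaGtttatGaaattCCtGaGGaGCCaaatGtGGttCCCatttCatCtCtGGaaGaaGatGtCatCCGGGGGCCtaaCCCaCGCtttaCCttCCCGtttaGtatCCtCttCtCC
Top2b, lower, chromosome 14, coding bases 247 to 366: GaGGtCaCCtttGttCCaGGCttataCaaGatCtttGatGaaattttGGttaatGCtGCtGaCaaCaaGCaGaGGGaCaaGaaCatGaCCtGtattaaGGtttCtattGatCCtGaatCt
Vmn1r81, lower, chromosome 7, coding bases 188 to 307: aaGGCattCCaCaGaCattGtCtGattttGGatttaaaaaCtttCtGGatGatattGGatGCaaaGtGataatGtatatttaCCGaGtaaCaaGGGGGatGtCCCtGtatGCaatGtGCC
Atp5e, higher, chromosome 2, coding bases 16 to 135: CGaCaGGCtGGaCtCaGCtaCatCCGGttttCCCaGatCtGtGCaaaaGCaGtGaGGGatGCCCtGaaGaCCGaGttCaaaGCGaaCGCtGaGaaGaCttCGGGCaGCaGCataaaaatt
Bace2, higher, chromosome 16, coding bases 259 to 378: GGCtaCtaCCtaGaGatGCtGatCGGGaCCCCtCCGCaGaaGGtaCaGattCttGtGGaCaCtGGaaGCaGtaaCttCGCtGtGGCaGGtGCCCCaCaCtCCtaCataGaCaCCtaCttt
Myl10, higher, chromosome 5, coding bases 34 to 153: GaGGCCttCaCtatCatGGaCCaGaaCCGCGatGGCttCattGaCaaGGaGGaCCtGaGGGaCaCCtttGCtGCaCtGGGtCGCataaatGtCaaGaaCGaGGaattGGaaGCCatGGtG
The stretch of Top2b holds 47 G or C bases and that of Vmn1r81 holds 46, against 62 in Atp5e, 64 in Bace2 and 63 in Myl10. Xkrx, with 57, lies between. The whole coding sequences of these higher genes are near the median of all genes compared, which is 52.5% GC. They are at 51.9% in Atp5e, 52.2% in Myl10 and 53.5% in Bace2. Their whole transcripts are at 54.6%, 53.5% and 45.9%, against a median of 49.4%, and that of Bace2 is also below the 46.5% of Xkrx.

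A gradient of transcript GC content ran through all genes compared. Of the 17841 genes with an annotated transcript, divided into 10 equal bins, the bin of lowest GC content (31.9% to 40.8% GC) had a median difference of -0.92 in the MTX pair, -0.92 in the HMS-I1 pair and -0.85 in the TSA pair. The bin of highest GC content (57.9% to 78.3%) had medians of 0.58, 0.53 and 0.54. The median was higher in each bin than in the one below it, in all 3 pairs. In the AA pair they were -0.04 and -0.07 at the 2 ends and reached 0.14 between them, so that pair showed no such slope. Across genes, Spearman's rho between the difference and GC content was 0.47 for MTX, 0.54 for HMS-I1 and 0.50 for TSA, against -0.05 for AA. The lowest bin held 532 of the 1093 lower genes, which is 29.8% of that bin, and 16 of the higher genes. The highest bin held 155 of the 477 higher genes and 5 of the lower genes. Relative to the median of genes in the same bin of GC content and of length, 228 genes were higher and 509 lower by the same rule, an alternative added after the data were seen.

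**Figure D1:**
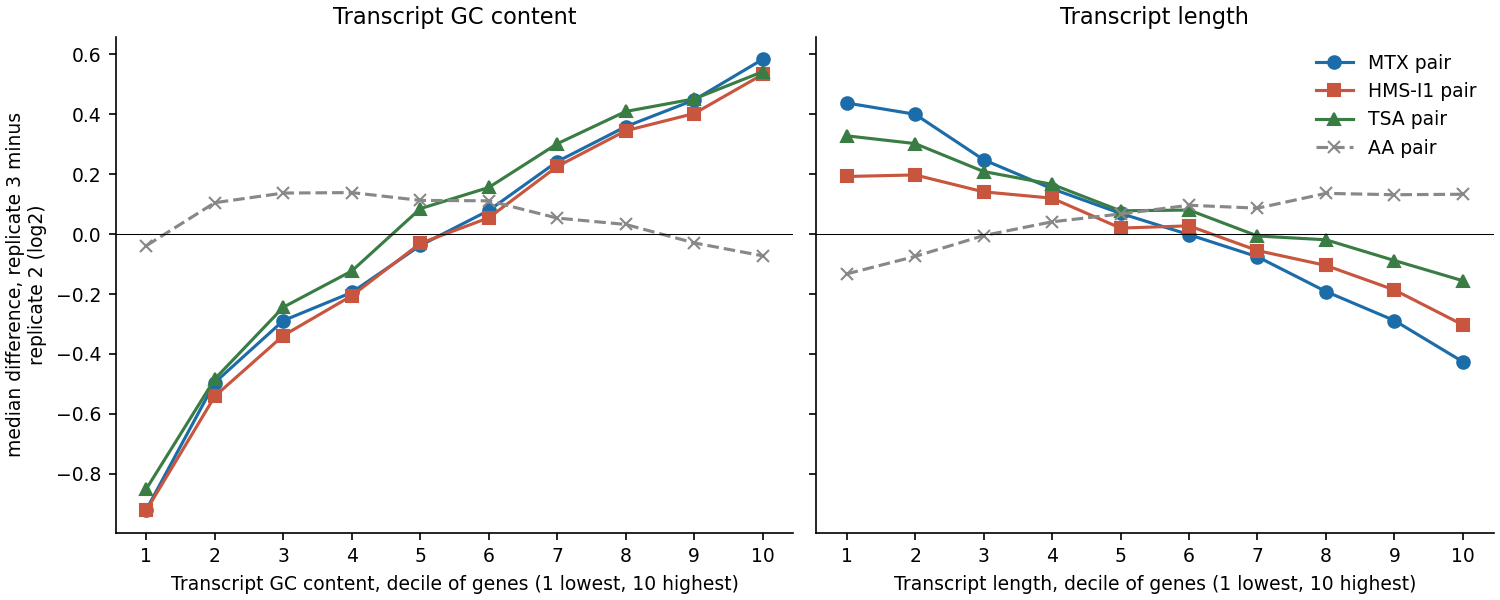
Median difference between replicate 3 and replicate 2 (log2, y axis) over genes in 10 bins of transcript GC content (left) and transcript length (right), with 1 line per treatment pair. The MTX, HMS-I1 and TSA lines climb together from -0.92, -0.92 and -0.85 to 0.58, 0.53 and 0.54 with GC content, while the dashed AA line stays between -0.07 and 0.14.

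The higher genes were also shorter. The median transcript length was 1392 bases for the higher genes, 3508 for the lower genes and 2843 for all genes compared, and the median number of exons was 5, 7 and 8. Spearman's rho with length was -0.29, -0.20 and -0.19 in the MTX, HMS-I1 and TSA pairs and 0.15 in the AA pair. The GC difference lay in both parts of the transcript. The median GC content of the coding sequence was 57.6% in higher genes and 43.4% in lower genes, against 52.5% in all, and that of the 3′ untranslated region was 50.9%, 35.9% and 43.9%. Promoters differed less. RefSeq promoters of GRCm38.p6, from 250 bases before to 50 after the start, had a median GC content of 57.7% in 330 matched higher genes, 58.0% in 702 matched lower genes and 59.3% in 13009 of all genes. Short motifs were searched on both strands as descriptions. The CCAAT box (CCAAT) was in 40.9% of the higher, 44.7% of the lower and 38.5% of all promoters, and the NRF1 motif (GCATGCGC) in 7.88%, 6.13% and 4.70%. The TATA box (TATAAA) was in 10.9%, 7.83% and 8.06%, and the core of the interferon-stimulated response element (GAAANNGAA) in 7.58%, 8.55% and 7.55%. The cAMP response element (TGACGTCA) was in 2.73%, 2.28% and 2.80%, the ETS core (CCGGAAG) in 15.8%, 16.7% and 15.1%, and the core of the heat shock element (GAANNTTC) in 5.76%, 6.27% and 6.33%.

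The named genes were the 12 in each direction with the largest weakest difference, among genes with a mean of at least 50 and a regular symbol. Atp5e (ENSMUSG00000016252), the epsilon subunit of the mitochondrial ATP synthase, was listed at 466, 545 and 472 normalised counts in replicate 2 of MTX, HMS-I1 and TSA. In replicate 3 it was at 3572, 2898 and 2476. The 2 sides did not overlap, and the differences were 2.94, 2.41 and 2.39. Control replicate 3 (789) and AA replicate 3 (693) lay near the replicate 2 side, while Control replicates 1 and 2 (4384 and 4556) lay above both sides. Rps14, a protein of the small ribosomal subunit, was at 2383, 4604 and 3808 in replicate 2 and at 21246, 21023 and 21702 in replicate 3. Its level in replicate 3 was nearly the same in the 3 treatments. Rps14 shares 37.6% of its sequence words with other genes, so part of this value may be divided among copies.

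Other higher genes came from varied pathways. Myl10, a myosin light chain, was at 343, 494 and 303 in replicate 2 and at 2172, 2005 and 1745 in replicate 3. Bcl2l11, which encodes the death-promoting protein Bim, was at 135, 246 and 64.3 against 992, 863 and 259. Its TSA libraries were the lowest of each side, and the replicate 3 value of TSA came close to the replicate 2 value of HMS-I1. Bace2, an aspartyl protease, was at 21.1, 29.0 and 33.4 against 93.1, 204 and 148, at the low end of what was measured. Pycard, the adaptor of inflammasomes, was at 34.2, 28.1 and 48.8 against 293, 145 and 171.

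Spaca4, a membrane protein of the sperm acrosome, was at 346, 492 and 69.0 in replicate 2 and at 1609, 1589 and 489 in replicate 3. The replicate 3 value of TSA lay just below the replicate 2 value of HMS-I1, so the sides overlapped between treatments while each pair kept its direction. Lars2, the leucyl-tRNA synthetase of mitochondria, was at 3999, 16057 and 7654 against 53042, 54086 and 28793. The 4 other genes of the group were Tmem89, Rabac1, Lsm11 and Rpl22l1, with differences of 1.72 to 2.80. In Lsm11, a component of the particle that processes histone messages, the values were 39.4, 58.3 and 78.4 against 208, 213 and 260.

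**Figure D2:**
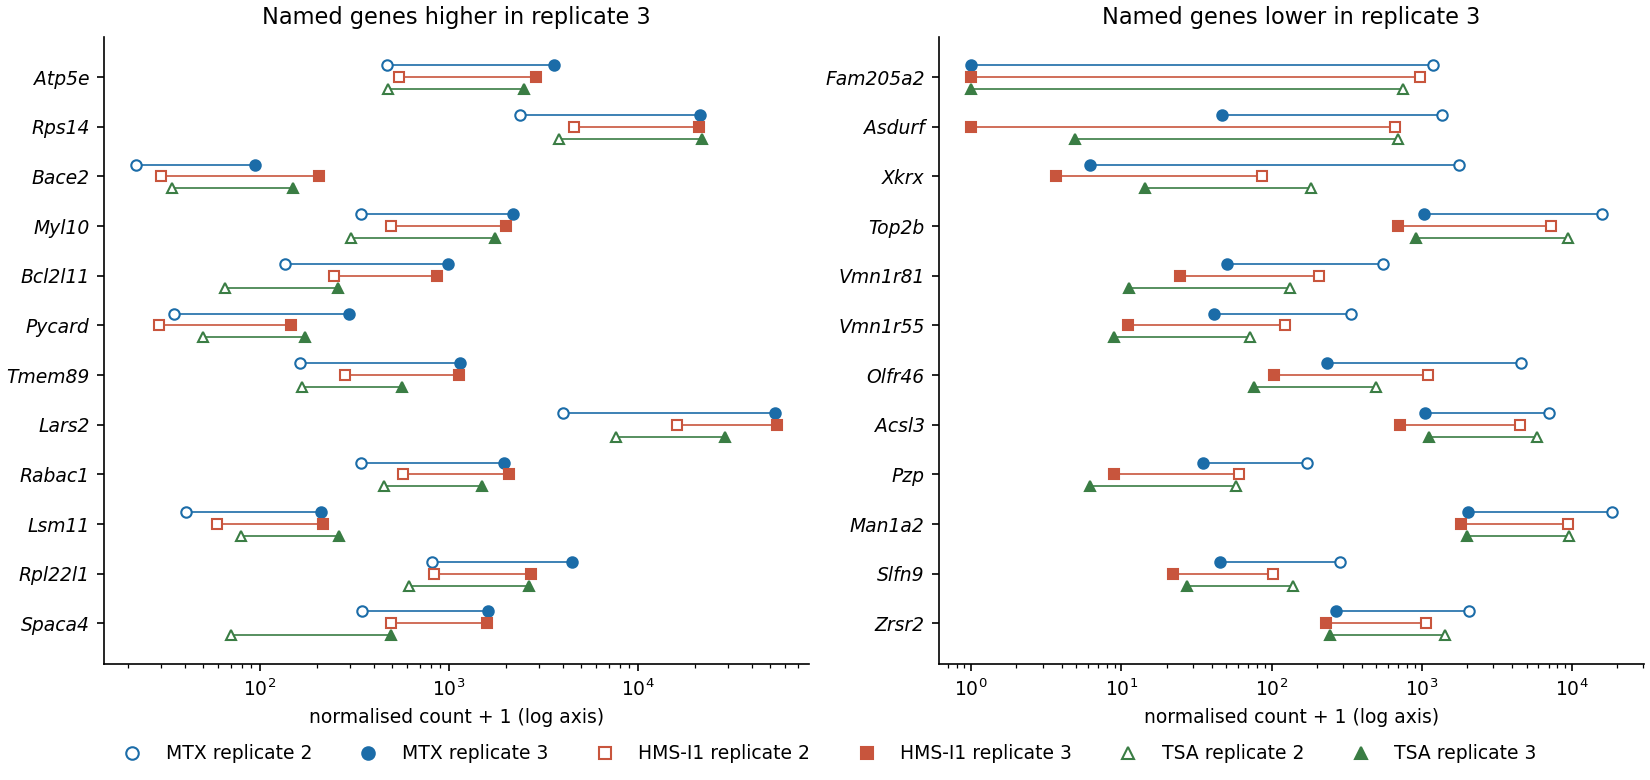
Normalised count + 1 (log axis) of the 12 named higher genes (left) and 12 named lower genes (right), with open symbols for replicate 2 and filled symbols for replicate 3, joined within a treatment. Filled symbols lie to the right in every pair of the left panel and to the left in every pair of the right panel, as the rule for choosing the genes requires, and Top2b spans 690 to 15814.

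Among the lower genes, Top2b (ENSMUSG00000017485), a topoisomerase II, was at 15814, 7230 and 9423 in replicate 2. It was at 1039, 690 and 916 in replicate 3, with differences of -3.93, -3.39 and -3.36. The sides were far apart, and Control replicate 3, at 6635, was again near replicate 2. Man1a2, a mannosidase of the Golgi, was at 18445, 9495 and 9552 against 2042, 1821 and 2007. Acsl3, which activates long-chain fatty acids, was at 7096, 4551 and 5871 against 1046, 717 and 1115. In both genes the highest value was MTX replicate 2, and the 3 replicate 3 libraries were close together.

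Zrsr2, an X-linked factor of the minor spliceosome, was at 2055, 1066 and 1437 against 269, 230 and 242. Xkrx, also on chromosome X, was at 1778, 85.3 and 182 against 5.22, 2.65 and 13.3. MTX replicate 2 thus exceeded every other library by a wide margin, the next being Control replicate 3 at 263. Pzp, a protease inhibitor, was at 172, 60.1 and 57.2 against 34.1, 7.97 and 5.23, and Slfn9 at 283, 101 and 138 against 44.7, 21.0 and 26.5. Receptor genes of the nose filled 3 places of the group. Vmn1r81 was at 548, 206 and 132 against 49.3, 23.5 and 10.2, and Vmn1r55 at 337, 121 and 71.1 against 40.6, 10.1 and 7.92. Olfr46 was at 4590, 1109 and 498 against 234, 104 and 75.6.

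The remaining pair of lower genes, Fam205a2 and Asdurf, rests on sequence shared with a neighbour, and their values are uncertain. Fam205a2 was listed at 1197, 979 and 746 in replicate 2 and at 0 in all 3 replicate 3 libraries. All of its sequence words of 31 bases are found in other genes. Its near copy Fam205a3, chosen after its values were seen, was at 276, 0 and 0 in replicate 2 and at 620, 370 and 1024 in replicate 3. Another copy, Fam205a1, also chosen later, was at 1527, 1433 and 371 against 1475, 1454 and 782. Asdurf overlaps Asnsd1, and the sum of both genes differed by only -0.05, 0.06 and 0.05, while the share of Asdurf in it was 9.34%, 7.26% and 7.60% in replicate 2 and 0.32%, 0% and 0.04% in replicate 3.

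The shares of parent and copy were also followed in genes with processed pseudogenes, which are copies of a message set back into the genome. The next 3 examples were chosen after their values were seen. Pdcd5-ps was listed at 1791, 1421 and 1320 in replicate 2 and at 0 in all 3 replicate 3 libraries. That was 18.1%, 16.6% and 19.5% of the sum of Pdcd5 and the copy, and Control replicate 3 had 17.1%. Rps6-ps4 held 23.7%, 33.4% and 28.5% of its sum with Rps6 in replicate 2, and 0.21%, 0.21% and 0.24% in replicate 3. The sum itself differed by 0.24, 0.05 and 0.10 only, while that of Pdcd5 and its copy differed by -0.28, -0.57 and -0.50. Ptges3-ps held 10.3%, 9.29% and 8.0% against 0.40%, 0.37% and 0.44%, and its sum with Ptges3 differed by -0.32, -0.60 and -0.56. The parents alone differed by 0.01, -0.31 and -0.18 in Pdcd5 and by -0.17, -0.47 and -0.44 in Ptges3. In these 2 genes the sum was thus lower in replicate 3 in all 3 pairs. Whether reads were divided differently between parent and copy was not tested. AA went the other way for these copies, at 0%, 0% and 0.81% in replicate 2 and 2.27%, 10.5% and 6.60% in replicate 3.

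Over a wider set of copies, processed and unprocessed, there was no common direction. The set was 65 pseudogenes named after a parent gene that was also compared, with 0% to 100% of their words in other genes. Of these, 16 (24.6%) took a smaller share of the sum in replicate 3 in all 3 pairs, and 22 (33.8%) took a larger share. Rps16-ps2 was at 15.2%, 23.7% and 23.3% in replicate 2 and at 38.2%, 37.2% and 35.4% in replicate 3, and it was chosen after these values were seen. Processed pseudogenes as a class were nevertheless prominent among the lower genes, with 123 of 583 (21.1%) lower and 22 (3.77%) higher. Of all genes, 6.11% were lower and 2.67% higher. Genes that share at least 50% of their words with others made up 21.8% of the higher genes and 23.4% of the lower genes, against 12.1% of all compared. Of the 36 higher genes listed at 0 in any of the 6 libraries, 32 were of this kind, and of the 51 lower genes 47 were.

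Widely shared sequence among lower genes is shown by 2 single-exon pseudogenes, picked after their values were seen. Each is given with its stretch of 60 bases whose words lie in the most genes.
Gm48119, chromosome 12, transcript bases 114 to 173: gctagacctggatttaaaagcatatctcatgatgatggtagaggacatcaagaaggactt
Gm48493, chromosome 13, transcript bases 3578 to 3637: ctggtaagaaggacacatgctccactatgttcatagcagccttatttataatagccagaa
On average a word of 31 bases from the first stretch lies in the transcripts of 52.8 genes and one from the second in 107. Gm48119 was at 4378, 1388 and 659 in replicate 2 and at 264, 147 and 103 in replicate 3. Gm48493 was at 7713, 1845 and 861 against 105, 85.1 and 61.2. Both were below every other library in replicate 3. No annotation of repeats was used here, and reads from any gene with these words could be counted in another.

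Genes of the mitochondrial genome formed the most uniform class of the lower end. These 13 genes encode core subunits of the respiratory chain and the ATP synthase. All 13 were lower in all 3 pairs and 12 passed the threshold, with list medians of -2.55, -2.40 and -1.64. mt-Nd5, a subunit of complex I, was at 373626, 169681 and 147097 in replicate 2 and at 34766, 27186 and 50150 in replicate 3. mt-Co1, a subunit of cytochrome oxidase, was at 1441890, 1038220 and 1061500 against 711201, 447879 and 514820. mt-Co3, at -0.41, -1.18 and -0.73, was the member that did not pass.

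As a share of a library's total, the 13 genes were 13.7%, 9.62% and 10.4% in replicate 2 and 5.08%, 3.54% and 4.52% in replicate 3. AA was 5.95% in replicate 2 and 8.23% in replicate 3, and Control replicate 3 was 8.06%. The values depend in part on nuclear copies of mitochondrial sequence on chromosome 1. Gm28439, one of 6 such copies examined after their values were seen, was at 171282, 61845 and 51230 in replicate 2 and at 1745, 2347 and 5324 in replicate 3. Gm28437 went the other way, from 0, 246 and 0 to 58004, 6626 and 6423. The 6 copies together held 3.04%, 3.28% and 2.95% of their sum with the mitochondrial genes in replicate 2, and 8.23%, 4.92% and 4.47% in replicate 3. The total of copies and mitochondrial genes was 5.73e+06, 3.50e+06 and 3.24e+06 in replicate 2 and 1.67e+06, 1.03e+06 and 1.30e+06 in replicate 3, so the lower level remained when the copies were added.

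The nuclear genes of the same respiratory complexes lay at the opposite end. Of 79 nuclear respiratory chain genes, 59 were higher in all 3 pairs at any size and 9 were lower, and 10 passed the threshold (12.7% of the list, against 2.67% of all genes) with none lower. Their median was 0.67. Ndufa7, an accessory subunit of complex I, was at 685, 1129 and 804 in replicate 2 and at 2696, 2765 and 1945 in replicate 3. Ndufb6, from the same complex, was at 524, 555 and 525 against 1309, 1289 and 1313.

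Proteins of the cytosolic ribosome behaved alike. Of 84 genes, 74 were higher in all 3 pairs at any size and 4 were lower. The median was 0.81, and 19 were higher past the threshold (22.6%, against 2.67% of all genes). Rpl36, of the large subunit, was at 1522, 1825 and 1514 against 5354, 5472 and 4355. Rps27, of the small subunit, was at 1549, 2479 and 1542 against 10472, 6683 and 5894. Rpl5, singled out after its values were seen, was past the threshold in the other direction, at 1185, 1059 and 1061 against 577, 519 and 520. Its transcript has 42.7% GC, below the list median of 51.6%, and a length of 2045 bases against a list median of 926. Many ribosomal protein genes have processed copies, so single values are uncertain.

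To set the lists beside the gradient, each difference was also given relative to the median of genes in the same bin of GC content and of length. The median of the ribosomal proteins was then 0.39, that of the nuclear respiratory chain 0.32 and that of the mitochondrial genes -1.54. Replication-dependent histones, whose messages lack poly(A) tails, had a median of 0.63 as deposited, 0.21 with a pseudocount of 10 and 0.05 relative to their bins. Among them 7 of 59 were higher (11.9%, against 2.67% of all genes) and 1 lower (1.69%, against 6.11%). The levels were low in these 6 libraries. Hist2h2ac was at 3.23, 1.27 and 1.57 against 14.1, 9.55 and 6.84.

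Receptors of olfactory and vomeronasal neurons, known from the sensory neurons of the nose, were mostly lower. Of 83 olfactory receptors, 22 (26.5%) were lower and 0 higher, with a median of -1.04. Of 56 vomeronasal receptors, 20 (35.7%) were lower and 0 higher, with a median of -1.25. Of all genes, 6.11% were lower and 2.67% higher. Vmn2r76 differed by -2.85, -3.34 and -3.31 in the 3 pairs. The AA pair was lower too, with medians of -0.96 and -1.13, so for these families it had the direction of the other pairs. Relative to genes of like GC content and length the medians were -0.18 and -0.27, and with a pseudocount of 10 they were -0.59 and -0.60. Of 406 zinc finger proteins, 82 (20.2%) were lower and 1, Zfp593 (named after its values were seen), was higher, with a median of -0.40 and -0.16 relative to their bins. Zfp52 was at 198, 185 and 179 against 35.2, 36.3 and 38.1, while in AA it was at 167 and 169.

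**Figure D3:**
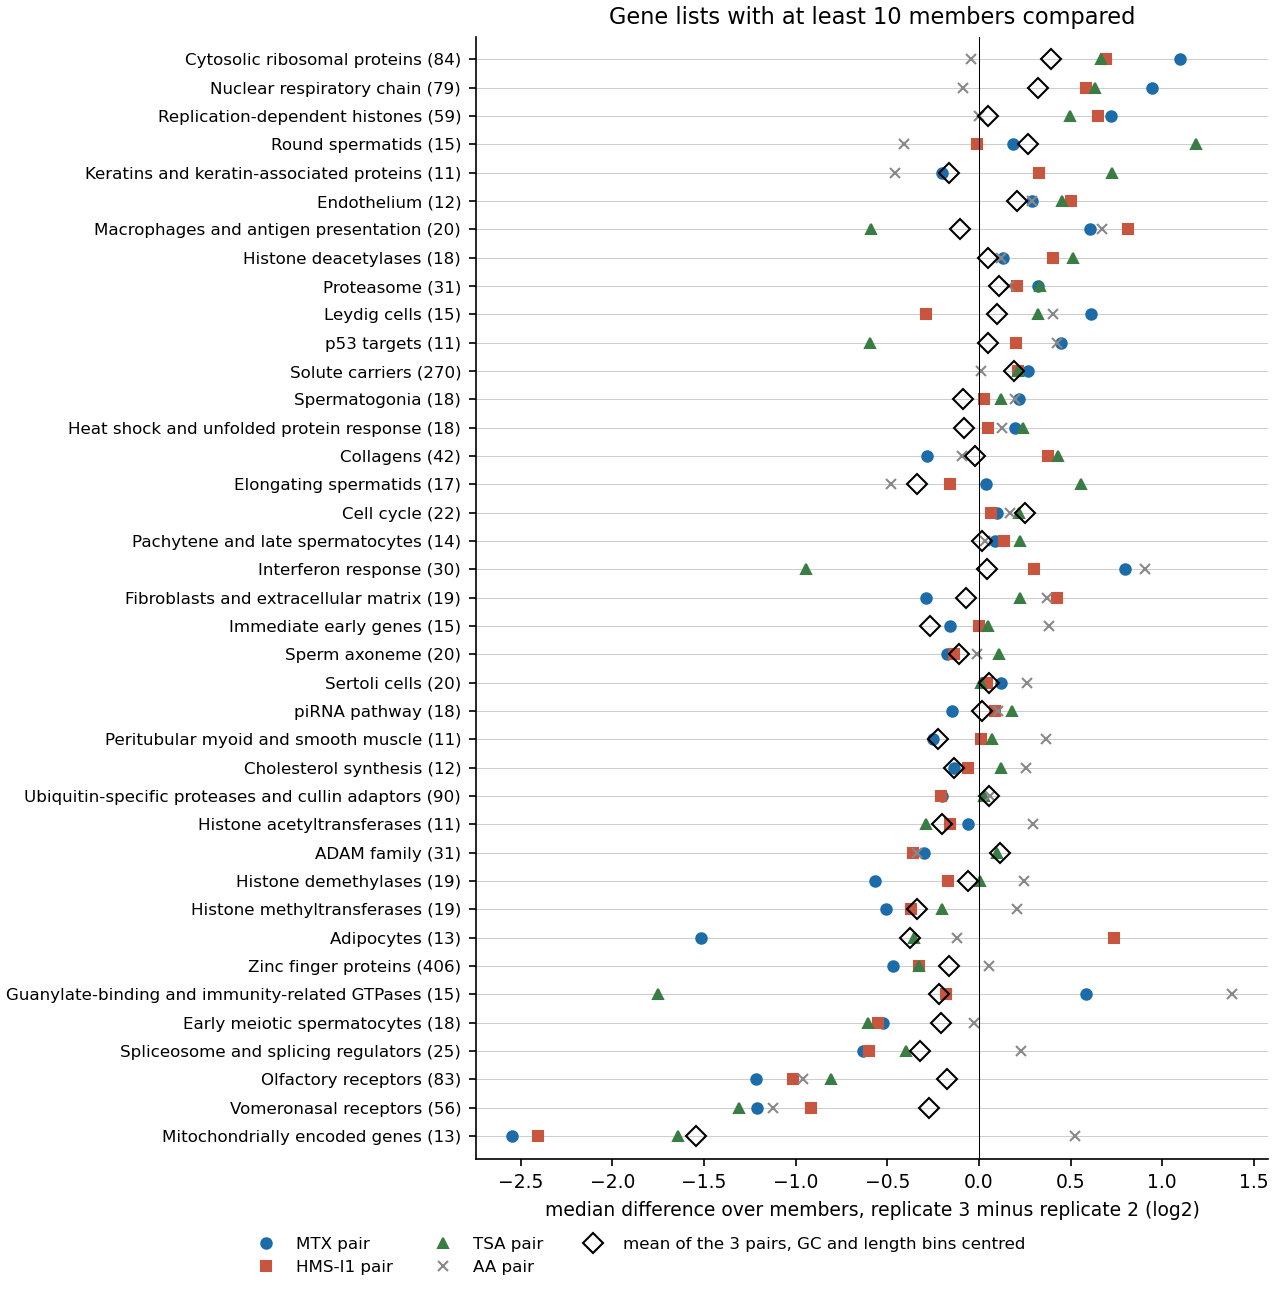
Median difference over the members of each gene list (replicate 3 minus replicate 2, log2, x axis), with the number of members in brackets, coloured symbols for the MTX, HMS-I1 and TSA pairs, crosses for AA and open diamonds for the mean of the 3 pairs relative to genes in the same bin of GC content and length. Mitochondrially encoded genes stand apart at -2.31 and at -1.54 as a diamond, while the diamonds of histones and olfactory receptors lie near 0, at 0.05 and -0.18.

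Genes of early meiotic spermatocytes were the germ cell list with the most lower members. Of 18 genes, 13 were lower in all 3 pairs at any size and 6 passed the threshold (33.3%, against 6.11% of all genes), with a median of -0.51. Sycp1 and Sycp3 build the synaptonemal complex, which holds paired chromosomes together. Sycp1 was at 59272, 30110 and 18327 in replicate 2 and at 8786, 7136 and 6815 in replicate 3, and Sycp3 at 20766, 16783 and 15908 against 6784, 5133 and 5320. Smc1b, the cohesin subunit of meiosis, was at 41009, 16851 and 12725 against 4294, 3398 and 3533. The sides did not overlap in any of these genes. Their transcripts are poor in GC, at 34.6%, 34.3% and 39.8%, and the list median was -0.21 relative to genes of like GC content and length and -0.21 with equal library totals.

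The summed level of the 18 genes was 217659, 129628 and 102198 in replicate 2 and 65117, 55080 and 54903 in replicate 3. Lists of later germ cells held smaller shares of lower genes than this list. Of 14 genes of pachytene and late spermatocytes, 2 were lower, still above the share of all genes (14.3%, against 6.11%), and 0 higher. The list median was 0.14, which was 0.07 without the TSA pair and 0.01 relative to genes of like GC content and length. Mybl1, the transcription factor of pachytene cells, was at 6940, 4753 and 5020 against 1507, 1428 and 1572. Ybx2, which stores messages in germ cells, was at 59749, 60556 and 50908 against 24011, 26597 and 24717, although its transcript has 63.4% GC.

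In elongating spermatids, 1 of 17 genes was lower and 1 higher, shares of 5.88% each against 6.11% and 2.67% of all genes. The list median of 0.16 had no steady sign: the pair medians were 0.04, -0.16 and 0.56, and the value was -0.06 without the TSA pair and -0.34 relative to genes of like GC content and length. Smcp, a protein of the sperm mitochondrial capsule, was at 166298, 120505 and 106396 against 45354, 35300 and 41622. Tssk6, a kinase of spermatids, was at 2091, 3430 and 2599 against 9068, 8723 and 8322. These 2 genes of the same cells thus lay at opposite ends, with 48.2% and 64.8% GC. Round spermatids had a median of 0.50, which rests on the TSA pair: its median was 1.19, against 0.19 in MTX and -0.01 in HMS-I1, and without TSA the list median was 0.09. Relative to genes of like GC content and length it was 0.27. Spaca3, an acrosomal protein, was at 744, 900 and 164 against 2046, 1856 and 730. Of 18 spermatogonia genes, Sohlh1, a transcription factor of early germ cells, was higher at 24.6, 50.2 and 46.6 against 82.9, 103 and 105, and no gene was lower. The list median was 0.21, and it turned to -0.09 relative to genes of like GC content and length.

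Lists of somatic cells held few genes past the threshold, with lower shares at or below the 6.11% of all genes. Among 20 Sertoli genes, the median was 0.05, with 2 higher (10%, against 2.67% of all genes) and 1 lower (5%). Amhr2, the receptor of anti-Müllerian hormone, was at 1181, 2176 and 2779 against 4580, 6324 and 7030, with 58.8% GC. Kitl, the ligand that supports germ cells through the receptor Kit, was at 1881, 1882 and 2411 against 696, 726 and 1014, with 39.3% GC. The summed level of the list was 70927, 76381 and 101729 in replicate 2 and 70946, 80297 and 101040 in replicate 3. Within these 6 libraries it thus differed more between the pairs than within them. In replicate 1 of MTX, HMS-I1 and TSA it was 63453, 64970 and 63057, so that order did not hold there.

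Among 15 Leydig genes, Nr5a1, the master regulator of steroid-making cells, was at 480, 867 and 1064 against 1178, 1818 and 2220. It was the only Leydig gene past the threshold, with 0 lower. The pair medians of the list were 0.61 in MTX, -0.29 in HMS-I1 and 0.32 in TSA, and the list median of 0.28 was 0.12 without the MTX pair and 0.10 relative to genes of like GC content and length. Endothelium (median 0.37 over 12 genes), peritubular myoid cells (-0.02 over 11) and macrophages (0.30 over 20) had no member past the threshold in either direction. Relative to genes of like GC content and length these medians were 0.21, -0.22 and -0.11, so that of macrophages turned. Of 19 fibroblast and matrix genes, 1 was lower (5.26%). Ogn, a small proteoglycan, was at 2125, 1736 and 1553 against 633, 693 and 512, with 36.3% GC. Of the lists of cells from outside the testis, Epididymis had 1 of its 9 genes and skeletal muscle 6 of 11 above the mean of 10. Ckm, the muscle creatine kinase, was higher but low throughout, at 7.70, 13.2 and 3.65 against 24.9, 31.7 and 8.48.

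Erythroid genes, which mark red blood cells, were higher in replicate 3. Of the 6 measured genes (8 listed), 5 were higher in all 3 pairs at any size and 3 passed the threshold, all of them globins, with a list median of 1.26. Hbb-bs was at 570, 694 and 575 in replicate 2 and at 3901, 2061 and 1648 in replicate 3. Hba-a1 was at 165, 297 and 295 against 1023, 765 and 671. Alas2, the heme synthesis enzyme of erythroid cells, differed less, at 577, 654 and 597 against 943, 1112 and 1064. The summed level of the list was 2192, 2699 and 2480 against 8989, 5565 and 4669, and 2710 and 2316 in AA. The globin transcripts are short, and relative to genes of like GC content and length the list median was 0.78. The globin copies are near-identical, which makes the split between them uncertain.

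Lists of histone-modifying enzymes had few members past the threshold. Of 18 histone deacetylase genes, 2 were higher (11.1%, against 2.67% of all genes) and 1 lower (5.56%, against 6.11%). Hdac5 was at 326, 320 and 187 against 786, 755 and 517, and Sirt3, a deacetylase of mitochondria, at 408, 474 and 506 against 994, 1123 and 1041. Hdac2 was at 5034, 3710 and 4106 against 2143, 1616 and 1819. Hdac5 and Sirt3 have 58.8% and 53.8% GC, and Hdac2 has 41.9%.

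Of 19 histone methyltransferases, 1 was lower (5.26%, near the share of all genes), with a median of -0.34, which was -0.21 without the MTX pair. Kmt2e was at 3738, 2629 and 2837 against 1125, 956 and 1197. Of 19 histone demethylases 2 were lower (10.5%, against 6.11% of all genes). Among these was Kdm5a, which removes methyl groups from lysine 4 of histone H3. It was at 9876, 4832 and 6054 against 2460, 1997 and 2697. Of 11 histone acetyltransferases, 0 were past the threshold in either direction.

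Most genes of RNA splicing were lower at any size. Of 25 genes of the spliceosome and its regulators, 18 were lower in all 3 pairs at any size and 6 higher, with 3 lower (12%, against 6.11% of all genes) and 1 higher (4%, against 2.67%) past the threshold. The median of -0.65 was -0.32 relative to genes of like GC content and length, and -0.35 with equal library totals. Hnrnpu, a nuclear RNA-binding protein, was at 47877, 29443 and 27945 against 10398, 10260 and 13349. Srsf1, a splicing activator, was at 11324, 8647 and 9795 against 4720, 3923 and 4706. Snrpb, a core protein of the splicing particles with 57.7% GC, was at 632, 656 and 736 against 1536, 1934 and 2028.

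In the proteasome, which degrades proteins, 3 of 31 genes were higher (9.68%, against 2.67% of all genes) and 0 lower. The median was 0.28, or 0.11 relative to genes of like GC content and length. Psmb5, a catalytic subunit, was at 499, 896 and 885 against 2428, 2568 and 2564. Among 22 cell cycle genes, 11 were higher in all 3 pairs at any size and 6 were lower. The list median was 0.15, or 0.25 relative to genes of like GC content and length. Past the threshold, Cenpf, Cenpe and Mki67 were lower (13.6%, against 6.11% of all genes). Cdc20, an activator of the anaphase-promoting complex, was higher (4.55%, against 2.67%). Mki67, the proliferation marker, was at 4489, 2608 and 2772 against 820, 711 and 1285. Cdc20 was at 1970, 2686 and 2426 against 4365, 5479 and 5968.

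In the piRNA pathway, which silences transposons in germ cells, 1 of 18 genes was higher (5.56%, against 2.67% of all genes) and 0 lower. The list median was 0.01. Gpat2 was at 528, 631 and 747 against 1662, 1899 and 2239. Of 20 genes of the sperm axoneme, Ccdc39 was lower, at 15861, 12470 and 12111 against 4620, 3733 and 3437, and Rsph9 was higher, at 1223, 1439 and 960 against 3001, 2994 and 2371. These are shares of 5% each, near the 6.11% and 2.67% of all genes, and the list median was 0.05. Stress lists had no member past the threshold in either direction: 18 heat shock genes (median 0.20), 15 immediate early genes (0.08) and 11 p53 targets (0.25). None of these medians had a steady sign. Relative to genes of like GC content and length, that of heat shock genes turned to -0.08 and that of immediate early genes to -0.27. That of p53 targets was -0.59 in the TSA pair, -0.26 without the MTX pair and -0.70 among members with a mean of at least 50. Hsp90aa1 was nonetheless close in all 3 pairs, at -0.96, -0.90 and -0.95.

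A larger share of the genes on chromosome X than of autosomal genes was lower. Of 879 genes on chromosome X, 94 (10.7%) were lower and 29 (3.30%) higher, against 935 (5.63%) and 431 (2.60%) of 16602 autosomal genes. The median GC content was 44.8% on chromosome X and 49.9% on the autosomes. On chromosome Y, 47 of 347 genes (13.5%) were lower and 15 (4.32%) higher, and many genes there are copies of one another.

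The 9 libraries that the rule did not use show where each end lies. The mean log2 level of the 477 higher genes was 6.72, 7.23 and 6.80 in replicate 2 of MTX, HMS-I1 and TSA and 8.66, 8.73 and 8.52 in replicate 3. The 4 treatment libraries numbered 1, with Control replicates 1 and 2, were at 8.44 to 8.63, beside replicate 3. The mean of the 1093 lower genes was 10.3, 9.55 and 9.42 in replicate 2 and 8.12, 7.68 and 7.65 in replicate 3, and these 6 other libraries were at 8.66 to 8.69, between the sides. Control replicate 3 was at 7.46 and 9.54, beside replicate 2. Gene by gene, its value was nearer to the mean of the replicate 2 libraries for 379 of the 477 higher genes (79.5%) and for 1071 of the 1093 lower genes (98.0%). AA replicate 3 was nearer to replicate 2 for 306 (64.2%) and 778 (71.2%), and AA replicate 2 for 108 (22.6%) and 681 (62.3%). In 175 of the higher genes (36.7%, against 3.45% of all genes) all 3 replicate 2 libraries were below all 9 other libraries, and in 85 (17.8%, against 5.79%) all 3 replicate 3 libraries were above them. In 570 of the lower genes (52.2%, against 9.30% of all genes) all 3 replicate 3 libraries were below the 9 others, and in 198 (18.1%, against 4.82%) all 3 replicate 2 libraries were above them. The rule that chose the genes bears on these shares, which are given as a description. By GC content the libraries were placed differently. The relative level of the highest GC bin minus that of the lowest was -0.354 to -0.023 in the 9 other libraries. It was 0.438, 1.183 and 1.342 in replicate 3 of MTX, HMS-I1 and TSA, all above that range. In replicate 2 it was -1.022, -0.290 and -0.171, so only MTX lay outside the range. The cause was not tested.

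**Figure D4:**
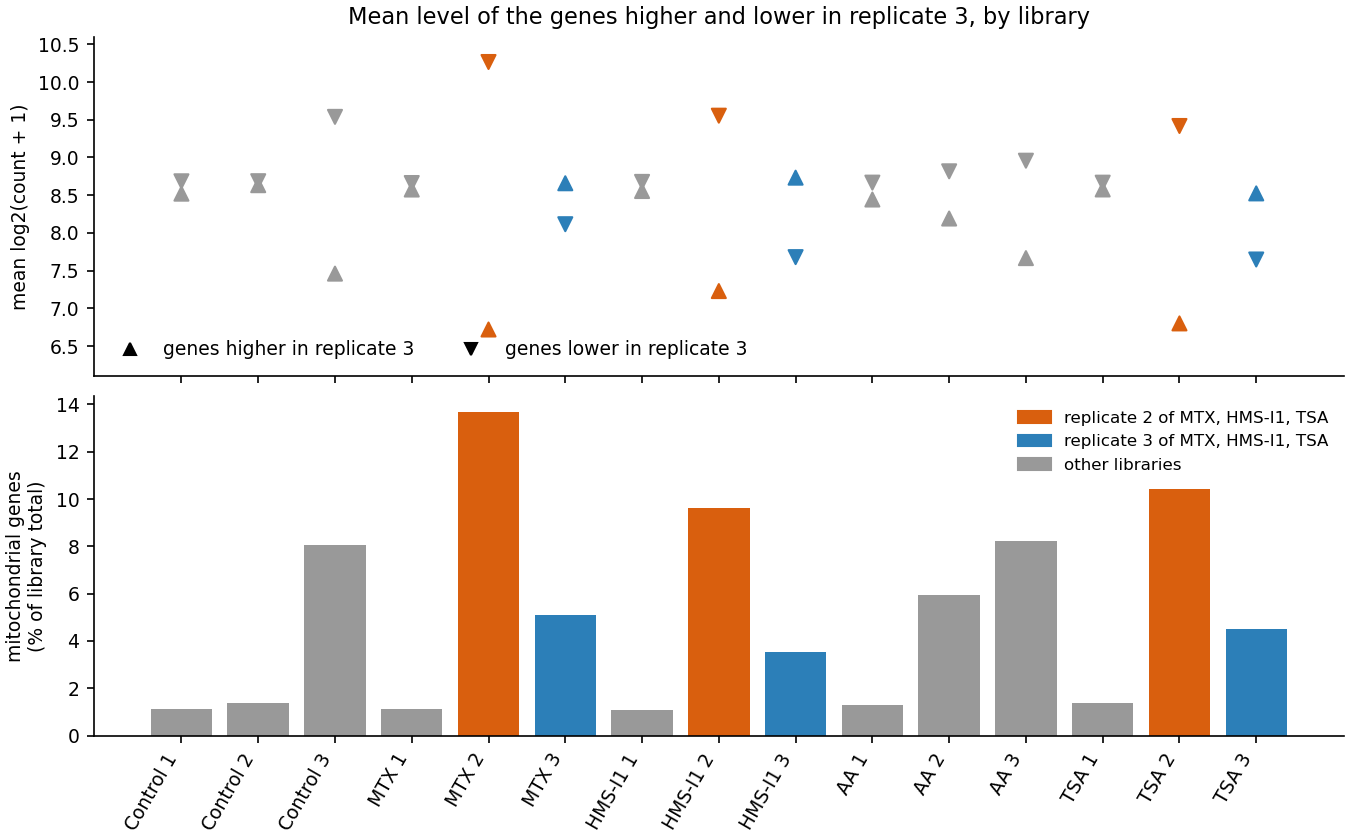
Top, mean log2(normalised count + 1) of the 477 genes higher (upward triangles) and the 1093 genes lower (downward triangles) in replicate 3, in each of the 15 libraries. Bottom, mitochondrially encoded genes as a percentage of each library's total. Orange marks replicate 2 and blue replicate 3 of MTX, HMS-I1 and TSA, and Control replicate 3, at 7.46, 9.54 and 8.06%, resembles the orange libraries.

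The AA pair, which the choice by values had left out, ran weakly against the others. That choice bears on the figures that follow, which are given as a description. Of the 477 higher genes 65 (13.6%) were higher in AA replicate 3 than in AA replicate 2, with a median of -0.43, and of the 1093 lower genes 413 (37.8%) were lower, with a median of 0.16. In AA, 533 genes (2.98%) were higher by at least 1 log2 unit and 865 (4.83%) lower, fewer than in each of the other pairs alone. Pearson's correlation of AA with the other pairs across genes was -0.18 for MTX, -0.12 for HMS-I1 and -0.32 for TSA.

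Depth is not stated in the labels and could only be estimated. The commonest small value of a library, shared by 65 to 202 genes, was taken as the worth of 1 read. It implied 6.89e+07, 5.59e+07 and 5.74e+07 reads in replicate 2 of MTX, HMS-I1 and TSA and 4.92e+07, 6.13e+07 and 4.26e+07 in replicate 3. The 6 libraries that lay beside replicate 3 in the higher genes had an implied 1.16e+07 to 1.55e+07 reads. These are estimates, because only 3.55% to 7.30% of low values were whole multiples of that step (within 0.01). The 20 highest genes took 16.9%, 12.5% and 13.2% of the total in replicate 2 and 8.90%, 7.09% and 7.63% in replicate 3. What part depth, RNA quality, dissection or the handling of a library plays in these differences was not tested.

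Differences among the 5 groups were tested across the same genes. In an F-test with limma over all 15 libraries, 0 of 17896 genes (0%) had an adjusted p under 0.05, and 230 had an unadjusted p under that level. The differences between replicates 2 and 3 enter the residual error of this test, and the higher and lower genes were chosen for those differences, so the test cannot show whether these genes differ between treatments. Without TSA replicate 1, 246 of all genes (1.37%) passed.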

How the data were processed

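RNA of whole mouse testes was sequenced in 15 libraries, 3 in each of 5 groups. The submitters' processing notes name Salmon 0.12.0, DESeq2 1.34.0 and FastQC 0.11.9 and the build GRCm39. The deposited values are a signal of normalised counts per Ensembl gene that the authors computed, and they are not whole numbers. Low values are not whole multiples of 1 step, so whole reads could not be recovered, no count test was run, and no counting intervals are given.

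Of 36118 identifiers, 35877 matched a symbol by Ensembl number in GENCODE's annotation of GRCm38, which also gave gene types, transcripts and chromosomes. The builds differ, so no genome coordinates are printed. A gene's transcript here is a single annotated one. Shared sequence was counted as the percentage of a transcript's words of 31 bases that occur in another gene. The sources used here do not give the strand setting of the counting.

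Values were analysed as log2(normalised count + 1) in genes with a mean of at least 10, with Python 3.11.15 and pandas 2.3.3. This scale understates differences of genes near 0. Differences were taken within each treatment, and 46 gene lists were summarised by medians and counts. The F-test used limma 3.58.1 in R 4.3.3, with a mean-variance trend and Benjamini-Hochberg adjustment over all genes. No label names separate animals, so its p-values reflect the spread of these libraries alone, which may be technical.

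Named genes were the 12 in each direction with the largest weakest difference, a mean of at least 50 and a regular symbol, up to 4 members per list by the same order, and the 2 genes on each side of the threshold. Not every gene picked in this way is printed. The libraries and lists were chosen with earlier results of these data known. Scripts were tested on simulated data. Alternatives covered the pseudocount, the filter, scaling, the threshold, each pair or replicate left out, and, added after the data were seen, sequence bins and shared sequence.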

Additional observations from a re-analysis of the deposited data

Results flagged for a closer look

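In the lists below the median difference between replicate 3 and replicate 2 had opposite signs in 2 treatments, each past 0.5 log2 units. Each side is 1 pair of libraries, and the difference between pairs was not tested. Interferon response genes, 30 in all, had a median of 0.80 in MTX and -0.94 in TSA, with 0.30 in HMS-I1 and 0.91 in AA. Bst2, an antiviral membrane protein, was at 67.2 and 329 normalised counts in the MTX pair and at 156 and 251 in the TSA pair. It was thus higher in both and went against the list median in TSA. Gbp7 was lower in all 3 pairs, at -1.08, -1.65 and -2.37, and was the only list member past 1 log2 unit in each. The 15 guanylate-binding and immunity-related GTPases, which act against pathogens inside cells and share members with the interferon list, had a median of 0.58 in MTX and -1.75 in TSA, with 1.38 in AA.

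Macrophage and antigen presentation genes (20) had a median of 0.81 in HMS-I1 and -0.59 in TSA, and their summed level was 14533 and 19329 against 24600 and 16239. The 9 lymphocyte genes measured, of 12 listed, had a median of 0.77 in HMS-I1 and -1.52 in TSA, with summed levels of only 316 and 462 against 821 and 400. Adipocyte genes (13) had a median of 0.74 in HMS-I1 and -1.52 in MTX. Their summed level was 1365 and 1696 in HMS-I1 and 3417 and 1155 in MTX. Car3, an adipocyte carbonic anhydrase, differed by -5.15 in MTX and by -0.32 and -0.79 in HMS-I1 and TSA, so in HMS-I1 it went against the list median.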

How the results depend on the processing

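The counts of 477 higher and 1093 lower genes stayed within 1.5 times with a pseudocount of 10 (350 and 939) or 0.5 (483 and 1106), no filter (549 and 1214), a mean of at least 50 (391 and 949), centring on the median (419 and 1196), and without genes that share at least 50% of their words (373 and 837). They were 1098 and 622 with equal library totals, 2380 and 2756 at a threshold of 0.5, 23 and 131 at a threshold of 2, and 228 and 509 relative to bins of GC content and length. Leaving out a pair gave 591 (without MTX) to 822 (without HMS-I1) higher and 1226 to 1609 lower genes, and 798 higher without TSA. These rules ask for agreement in 2 pairs only.

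The limma F-test gave 0 genes with another pseudocount, filter or scaling, without the trend, and with sequence bins centred. Leaving out a library gave 0 to 246 genes: 246 without TSA replicate 1, 1 without Control replicate 1 (Rdh16f1), 1 without HMS-I1 replicate 3 (Gm21704), and 0 otherwise. The cause was not tested. With the replicate number as a block it gave 0 genes (892 with an unadjusted p under 0.05). Libraries with the same number mostly deviated together from their group means: the correlation was over 0.1 in 26 of 30 pairs, at 0.13 to 0.76, and 11 of 15 libraries correlated best with their own number. The 4 other pairs, all with Control replicate 2, were at -0.58 to -0.30. The counts include pairs among the replicate 2 and replicate 3 libraries of MTX, HMS-I1 and TSA, at 0.64 to 0.76. Those libraries were chosen for such likeness. Pairs of libraries numbered 1, outside that choice, were at 0.41 to 0.75. As the pairs with Control replicate 2 go against a common block and no label says what a number marks, the block was kept as an alternative.

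Of the 44 lists with at least 3 members, the medians of 24 moved with bins of GC content and length and of 29 with equal totals. Over the alternatives run, 0 lists with a median past 0.5 changed sign. Depth is not stated, so precision from counting is unknown.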
